A study of Oryzias latipes with 7 samples.

Results

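In medaka (Oryzias latipes) ovarian follicles, 98 probe sets were high at only 2 neighbouring sampling times on the way to spawning and low before and after. Of these, 44 were high at 23 and 14 h before spawning and 54 at 14 and 8 h, out of 47773 probe sets kept above a filter on low values and 63698 on the array. The members were selected by their own values: on the log2 scale, the 7 arrays of each kept probe set were sorted, the widest gap between neighbouring values had to be 2 or more (4-fold), and the arrays above it had to be exactly the 23 and 14 h arrays or exactly the 14 and 8 h arrays. The size of that gap is called the gap of a member below, and members are ranked by it within their wave. Every array entered this choice, so the values below describe the members and carry no test.

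The follicles came from fish kept in breeding condition at 27 °C with 14 h of light and 10 h of dark, and the labels name no treatment and no altered gene. The 7 groups were follicles taken 47, 35, 32, 23, 14, 8 and 2 h before spawning, and each group was 1 array hybridised with Cy3-labelled cDNA from the RNA of 100 pooled follicles. The labels say that the largest and second-largest follicles were dissected, and the number of females per pool is not given in the sources used here. Values are RMA intensities, one summary of the probes of a probe set per array. The 8 h array had the lowest median intensity (599) and the 47 h array the highest (703). With 1 array per time, array-to-array error cannot be told apart from change over time. The closest pair of times, 35 and 32 h, served as a rough yardstick. These were separate pools 3 h apart, and their log2 difference was under 1.02 in 95% of the kept probe sets.

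A follicle is an oocyte wrapped in granulosa and theca cells. In medaka, as in other teleosts, a surge of luteinizing hormone acts on these outer cells, which respond with short bursts of transcription of steroidogenic enzymes, transcription factors such as the nuclear progestin receptor, and proteases that later open the follicle wall. The oocyte meanwhile resumes meiosis under a maturation-inducing steroid, and ovulation and spawning follow. Genes that are on for only part of this sequence are the kind of event that a short wave in a time course can hold. None of the 63698 identifiers matched the RefSeq gene table used here (0 matches), and the gene information column of the files was empty, so no member is given a gene name, a role, a sequence or a genome position. For the same reason the labelled tissue was not checked against markers of oocyte, granulosa, theca, blood, immune, endothelial or muscle cells.

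The times rest on the files of the single arrays, and a second deposited source differs. In the series-wide value table the array filed under 23 h stands under 35 h, the one filed under 14 h under 32 h, and the one filed under 8 h also under 8 h. The arrays filed under 35, 32 and 2 h stand there under 2, 14 and 23 h. The yardstick of 35 and 32 h would then be a pair at 2 and 14 h. Results below on the early arrays, the 2 h array and the wave borders rest on the times of the single-array files. With the table's times the first wave would be a wave at 35 and 32 h, again neighbours in time. The second would be high at 32 and 8 h, which are not neighbours. With those times the rule for 23 and 14 h found 0 probe sets and the rule for 14 and 8 h found 4, none of them a member here. The array numbers fall into a 6-digit series (47, 23, 14 and 2 h) and an 8-digit series (35, 32 and 8 h). Both high arrays of the first wave belong to the 6-digit series, whereas the second wave spans both, with 14 h in one and 8 h in the other.

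**Figure D1:**
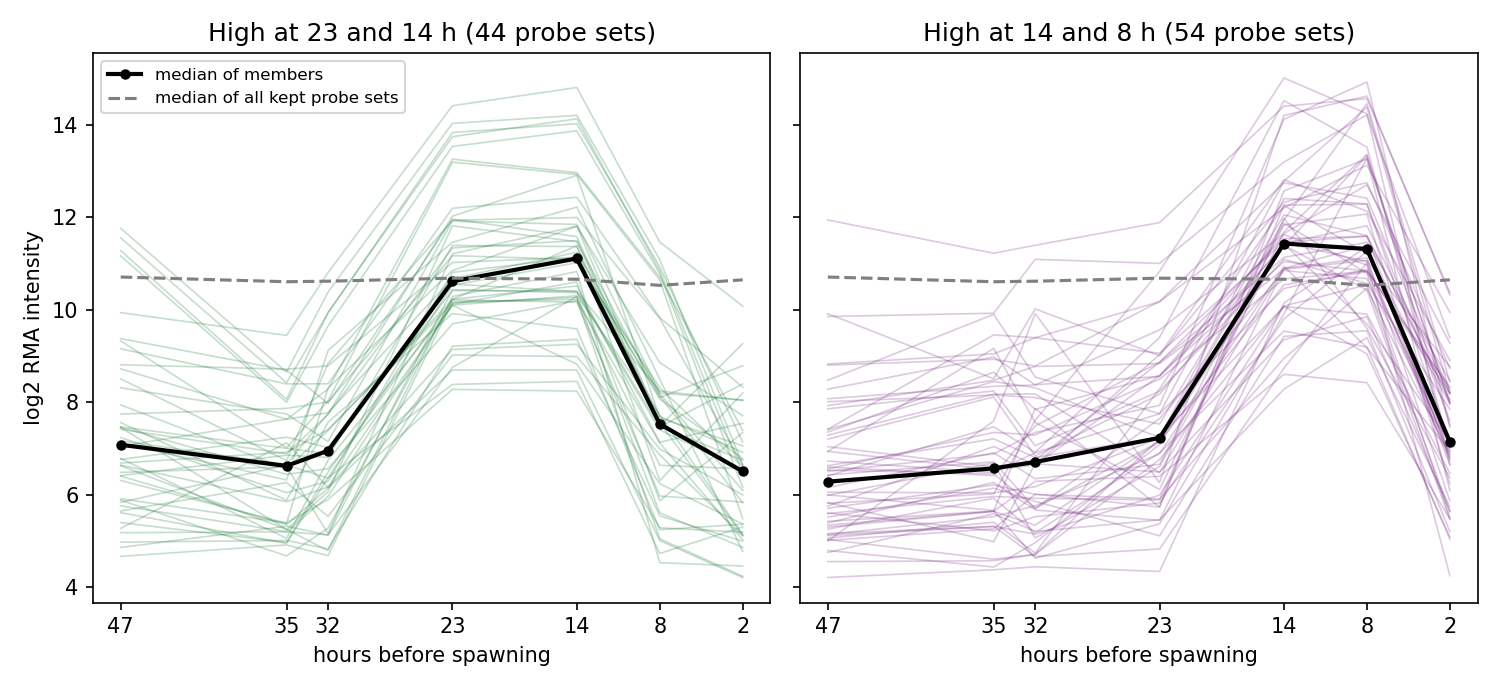
Log2 RMA intensity (y axis) of every member against hours before spawning (x axis, spawning at the right), with 1 array per time. Thin lines are the 44 members high at 23 and 14 h (left) and the 54 high at 14 and 8 h (right), black lines their medians, and dashed lines the median of all 47773 kept probe sets, which stays between 10.52 and 10.70.

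Follicles at 23 and 14 h held the first wave. The median intensity of its 44 members was 135, 98.5 and 124 at 47, 35 and 32 h, then 1567 and 2203 at 23 and 14 h, and 185 and 90.8 at 8 and 2 h. In these medians both high arrays stood far over the earlier ones, and the 2 h array was the lowest of all. In bulk RNA of whole follicles, fewer cells of a type and less RNA per cell cannot be told apart. The 44 members are 0.0921% of the kept probe sets, against 0.0209% (10 probe sets) that were low at 23 and 14 h by the mirrored rule. Their gaps ran from 2.01 to 5.12 with a median of 2.33, which is 5.03-fold. Only 8 members had a gap of 3 or more, and 36 lay between 2 and 3.

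Follicles at 14 and 8 h held the second wave, with 54 members. Their median intensity was 78.1, 95.03, 104 and 150.1 at 47, 35, 32 and 23 h, then 2757 and 2541 at 14 and 8 h, and 142 at 2 h. Among the low arrays before the wave, each later one had a higher median than the one before it. The 54 members are 0.113% of the kept probe sets, against 0.0314% (15 probe sets) that were low at 14 and 8 h. Their gaps ran from 2.00 to 6.18 with a median of 2.82, or 7.05-fold, and 25 members had a gap of 3 or more. The second wave therefore held more members with wide gaps than the first, 25 of 54 against 8 of 44; values chose both groups, so this was not tested.

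Single arrays set the boundaries of both waves. Without the 8 h array, 198 probe sets would have met the rule for 23 and 14 h, and without the 47 h array 79. Without the 23 h array, 231 would have met the rule for 14 and 8 h, and without the 2 h array 103. Nearly all members were also found in these 4 settings, with 43 and 42 of the 44 and all 54 of the 54 in both others. Without the 35 h and 32 h arrays, 38 and 39 of the 44 were found, and 54 and 53 of the 54. Leaving out a low array cannot narrow a member's gap, so the rule largely sets this overlap. Gaps ran on without a break across the threshold. The 3 members of the first wave just inside had gaps of 2.01, 2.01 and 2.02 and the 3 probe sets just outside 1.99, 1.98 and 1.97; in the second wave the values were 2.00, 2.02 and 2.03 inside and 1.98, 1.97 and 1.96 outside. Between a gap of 1.5 and 2 lay another 53 probe sets split at 23 and 14 h and 48 split at 14 and 8 h.

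The widest gap of the first wave belonged to probe set OLAT0001S00024025. Its intensities from 47 h to 2 h, in the order of the arrays, were 25.4, 30.2, 25.7, 1150.1, 1192, 33.1 and 18.9. The 23 and 14 h values differed by 1.04-fold, and the lower of them was 34.8-fold above the highest of the other 5 arrays, all of which lay under the filter's level of 75.8. OLAT0001S00002332, rank 2, read 143, 101, 216, 4153, 7660.4, 202 and 133 in the same order of times. Its 14 h value was 1.84-fold its 23 h value, and its gap was 19.2-fold.

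Rank 10, the member with the brightest signal in the first wave, had all its low arrays far above the filter's level. It read 979, 696 and 1780.4 at the 3 early times, then 21714 and 28528 in the wave, and 2814 and 1080.2 after it. A clear level was thus present before and after the wave, with 8 h the highest of the low arrays. This and the other members given below by rank were picked after their values were seen.

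The second wave was led by probe set K_OLAT0000S00021201. Its intensities from 47 h to 2 h were 90.8, 118, 163, 244, 17714, 30979.9 and 176. The 14 h value was 72.6-fold above the 23 h value, the next highest, and 6 h after its peak the signal was back among the low arrays. K_OLAT0000S00016663, rank 2, read 32.3, 38.4, 64.5, 53.2, 4897, 4967 and 141 in the same order. Its 14 and 8 h values differed by 1.01-fold, its gap was 34.7-fold, and its 2 h value stayed 1.71 (log2) above the mean of the 47, 35 and 32 h arrays.

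The second wave also had members with high signal outside it. Rank 36 had the brightest low arrays, with 3922, 2383, 2685 and 3771 before the wave, 21512 and 24165 in it and 1321 after it. Its 2 h level was the lowest of the 7. The brightest value of the wave was that of rank 15, at 32894 at 14 h. That member was already at 1815 at 23 h, against 56.3, 64.9 and 195 at the 3 early times, and it had 19248 at 8 h and 101 at 2 h.

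At their highest array the members reached ordinary levels of expression. Ranked among the kept probe sets of that array, the peak of a first-wave member lay at a median percentile of 57.1 (20.8 to 98.6), and that of a second-wave member at 65.3 (24.3 to 99.1). In the first wave 5 members and in the second 8 peaked in the top 10% of the array, and 19 and 8 peaked at or below the 50th percentile. Outside the wave many signals were weak. All 5 low arrays lay at or under the filter's level in 4 first-wave and 5 second-wave members, whereas none did in 18 and 24. For the former the fold above the low arrays depends on values near the floor of the array.

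The wave arrays were compared to see whether a wave was flat or leaning. Among first-wave members the 14 h value exceeded the 23 h value in 28 of 44 members, and the median difference was 0.13 on the log2 scale (-1.27 to 1.53). In 41 of the 44 it was under 2-fold, and 41 lay within the 1.02 that bounded 95% of differences between 35 and 32 h. That bound was set by all kept probe sets. Between 35 and 32 h, only 30 of the 44 members and 41 of the 54 second-wave members lay within it. It is thus a rougher yardstick for members. The 35 and 32 h arrays also share the 8-digit array-number series and are 3 h apart, whereas the 14 and 8 h arrays lie in different series, 6 h apart. In the second wave the 8 h value was higher in 33 of 54, with a median difference of 0.18 (-2.38 to 3.37). That median was 0.30 with quantile normalization and 0.37 with median centring, which put the 8 h value higher in 34 and 37 of the 54. Here 35 of 54 were within 2-fold and 36 within 1.02, while 12 were at least 2-fold higher at 8 h and 7 at least 2-fold lower. From 23 h to 14 h, 3.93% of all kept probe sets were higher and 4.41% lower by 2-fold or more, against 10.3% and 15.5% from 14 h to 8 h, an interval that crosses the array-number series. The wider spread within the second wave thus ran beside a wider spread of all probe sets, and the part of the array-number series in it was not tested. Over all kept probe sets the median of the same difference, later minus earlier array, was -0.03 for the first pair of arrays and -0.11 for the second. The rule itself keeps this difference below the gap.

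**Figure D2:**
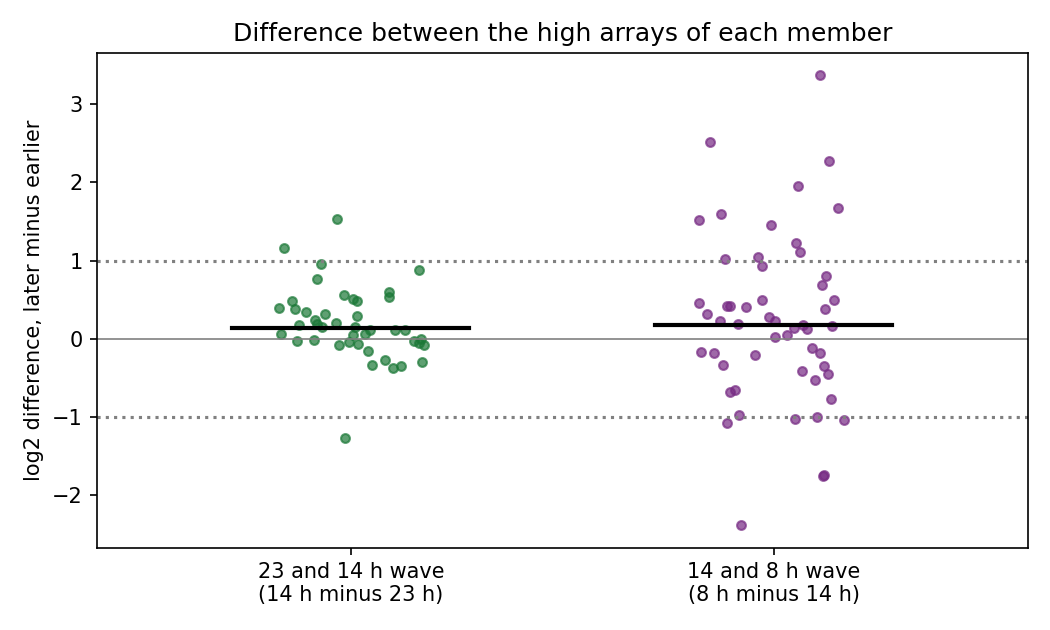
Log2 difference between the high arrays (y axis, later minus earlier) for each member (points) of the first wave (14 h minus 23 h, left) and the second (8 h minus 14 h, right). Black bars are medians (0.13 and 0.18), dotted lines mark 2-fold, and points are spread sideways only to separate them; 41 of 44 points on the left and 35 of 54 on the right lie between the dotted lines.

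A few members leaned strongly. Rank 8 of the first wave went from 431 at 23 h to 1247 at 14 h, having stood at 35.1 to 36.7 at the 3 earlier times, and returned to 48.8 at 8 h and 29.1 at 2 h. Rank 39 leaned the other way, with 1093 at 23 h and 452 at 14 h, against 110.3, 33.3 and 107 at the early times and 75.5 and 41.3 after the wave. These were the extremes of that wave in either direction.

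The second wave leaned further at its extremes. Rank 10 stood between 24.7 and 63.9 from 47 h to 23 h, reached 959.9 at 14 h and 9905 at 8 h, and was at 68.0 at 2 h. The 8 h value was 10.3-fold the 14 h value. Rank 12 had 3912 at 14 h and 22410 at 8 h, and rank 14 had 426 and 2064, which are 5.73-fold and 4.84-fold apart. In the other direction, rank 22 had 4032 at 14 h and 774 at 8 h. Its low arrays were tight, between 48.2 and 62.4 before the wave and 82.5 after it.

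Entry into the first wave came between 32 h and 23 h, 9 h apart, and exit between 14 h and 8 h, 6 h apart. The median log2 change was 3.69 into the wave (2.01 to 6.05) and -3.31 out of it (-6.29 to -2.13), with every member past 4-fold in both, as the rule requires. The same 4-fold changes were passed by 2.07% of all kept probe sets into the wave and by 3.41% out of it. For the second wave the median change was 3.84 between 23 h and 14 h (2.03 to 7.94) and -4.19 between 8 h and 2 h (-7.58 to -2.25), where 1.15% and 3.86% of all kept probe sets passed 4-fold in the same directions. In both waves the change out was of a like size to the change in, and the rule holds the low arrays on both sides below the gap. The sampling interval was 9 h at each entry and 6 h at each exit, so the speed of rise and fall cannot be compared. The array-number series changes at both borders of the first wave and at the exit of the second, but not at the second's entry. Its part in these steps was not tested.

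The arrays beside each wave showed how sharp its borders were, with the array-number series changing at every border except 23 to 14 h. Over all kept probe sets, the median difference from the mean of the 47, 35 and 32 h arrays was -0.02 at 23 h, -0.16 at 8 h and -0.04 at 2 h. Most kept probe sets were brighter than the members' low arrays. The median percentile was 14.9 at 8 h and 5.9 at 2 h for first-wave members. For second-wave members it was 11.0 at 23 h and 11.0 at 2 h, and the part of signal level was not tested. In the first wave the 8 h array was a median of 0.74 (log2) above the mean of the 47, 35 and 32 h arrays, which is 17.6% of the wave's log2 height in the median member. It was at least 2-fold above that mean in 16 of 44 members and at least 2-fold below it in 4, against 10.2% and 13% of all kept probe sets. The 8 h array was the highest of the low arrays in 18 members, the 47 h array in 13, the 32 h array in 7, the 2 h array in 5 and the 35 h array in 1. By 2 h the median difference from the early mean was -0.39. At that time 16 members were 2-fold or more below the early mean and 6 were 2-fold or more above it. The shares of all kept probe sets were 13.3% and 12%. The 2 h array was the lowest of the 7 in 22 of the 44. For these counts of highest and lowest arrays, no share over all kept probe sets was computed. The rule keeps the 23 and 14 h arrays out of both places.

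In the second wave the array before the wave was raised more often than the one after it. The 23 h array was a median of 0.65 above the early mean, 17.4% of the wave's height, and was at least 2-fold above it in 21 of 54 members and at least 2-fold below it in 4, against 7.64% and 5.94% of all kept probe sets. It was the highest low array in 22 members, followed by 2 h in 15, 35 h in 12, 32 h in 4 and 47 h in 1. No share over all kept probe sets was computed for these counts. After the wave, the 2 h array lay a median of 0.38 above the early mean, at least 2-fold above it in 15 members and at least 2-fold below it in 2, against 12% and 13.3% of all kept probe sets. At 2 h the waves thus leaned in different directions, with 16 of 44 and 2 of 54 members at least 2-fold below their early mean. The 16 include ranks 17, 19, 28 and 29, whose profiles were nearly the same and which may not be separate genes. Within 2-fold of the early mean lay 22 of 44 and 37 of 54. At 47, 35 and 32 h, 12, 17 and 14 of the 44 lay at or under the filter's level, against 27, 22 and 22 of the 54. Weak early values leave less room for a fall, and the part of signal level was not tested. The rule keeps the low arrays below the gap and allows no wider step among them, and the difference between the waves was not tested.

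**Figure D3:**
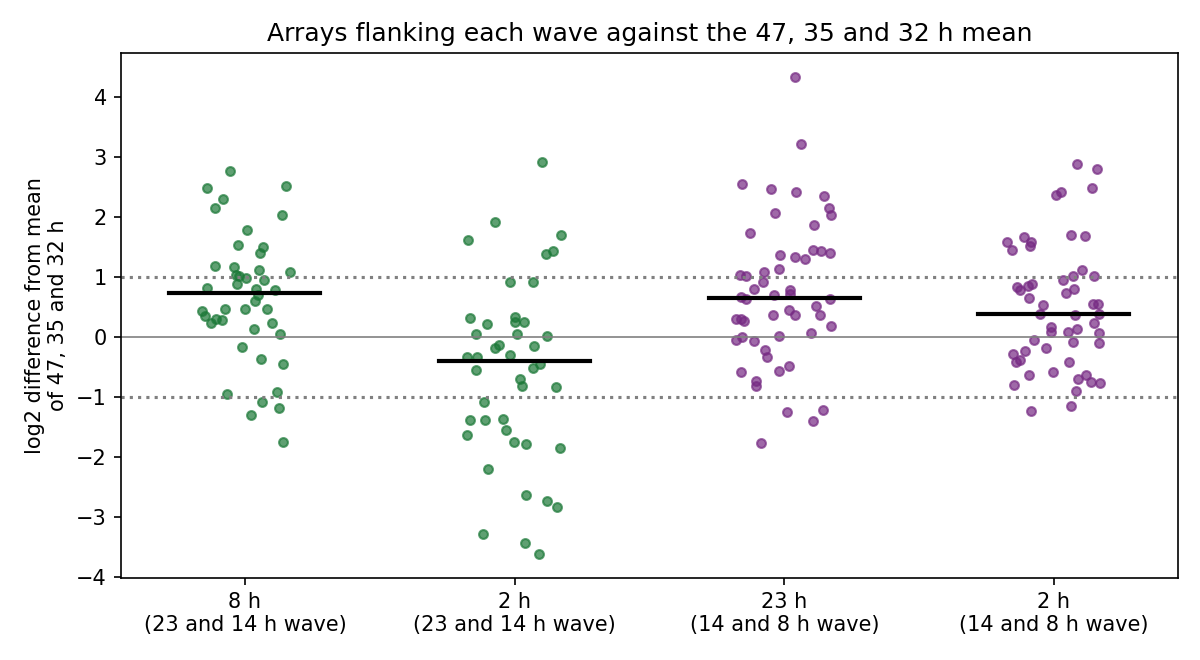
Log2 difference of the array after (8 h) or before (23 h) each wave, and of the 2 h array, from the mean of the 47, 35 and 32 h arrays (y axis), for each member of the first wave (green) and the second (purple). Black bars are medians (0.74, -0.39, 0.65 and 0.38 from left to right) and dotted lines mark 2-fold; the 2 h points of the first wave reach down to -3.62, those of the second to -1.24.

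Single members show the range of these borders. Rank 40 of the first wave was at 79.1 at 8 h but stood at 294 at 2 h, after 59.1, 25.6 and 38.8 at the 3 early times, 1195 at 23 h and 2666 at 14 h. This is the highest 2 h value relative to the early mean in that wave, at 2.92 on the log2 scale. In the second wave, rank 26 was raised on both sides, with 313 at 23 h and 250.1 at 2 h, against 33.4, 42.4 and 26.7 at the early times and 4864 and 2371 at 14 and 8 h. Rank 19 was raised after the wave alone, with 18.5 to 21.8 before it, 1131 and 2638 in it and 113 after it.

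The early arrays were less even among first-wave members than among second-wave members, a difference that was not tested. The 47, 35 and 32 h values of a member lay within 2-fold of each other in 18 of 44 first-wave and 35 of 54 second-wave members, and in 81.4% of all kept probe sets. They spanned 4-fold or more in 9 and 4 members, against 2.39% of all. Among the kept probe sets, the early arrays of members were weak. At 47, 35 and 32 h the median percentiles were 9.4, 5.6 and 8.5 in the first wave. In the second they were 3.7, 5.2 and 6.3. The shares over all kept probe sets rest mostly on brighter signals, and the part of signal level was not tested. Among the 44, the 35 h array was the lowest of the 3 in 27 members. The 47 h array was the highest in 21 and the lowest in 9. Over all kept probe sets the median log2 was likewise highest at 47 h (10.70) and lowest at 35 h (10.60), with 10.61 at 32 h. The share of all kept probe sets with each order was not computed. At 35 h, 16 of the 44 were 2-fold or more below their 47 h level and 1 was 2-fold or more above it, next to 7.14% and 5.47% of all kept probe sets. The second wave had 1 of 54 below and 8 above. The 47 h and 23 h arrays are 24 h apart and share the clock time and the array-number series, so an early high at 47 h in first-wave members coincides with both, and their parts were not tested. The 32 h and 8 h arrays are likewise 24 h apart and share an array-number series. Among second-wave members, 32 h was the highest early array in 20, 35 h in 27 and 47 h in 7, again without a share over all kept probe sets.

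A group of 4 first-wave members followed this uneven course together. Ranks 17, 19, 28 and 29, all with the K_ form of identifier, lay between 2291 and 3462 at 47 h, between 256 and 402 at 35 h and between 801 and 1333 at 32 h. Their signal then lay between 11799 and 16673 at 23 h, between 14914 and 18806 at 14 h, between 1756 and 2163 at 8 h and between 71.6 and 141 at 2 h. The 47 h signal was thus several times that at 35 h, and their lowest value came at 2 h. Of the 6 pairs among them, 5 differed by less than 0.75 (log2) on every array, a limit set after the values were seen, with largest differences of 0.31 to 0.74. Whether these 4 probe sets measure one transcript or several is not given in the sources used here, so the number of genes in the wave may be lower than 44. The same holds for the counts above: all 4 are among the 9 first-wave members whose early arrays spanned 4-fold or more. They are also among the 16 that were at least 2-fold lower at 35 h than at 47 h.

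Only 3 other pairs of members were that close. Ranks 23 and 43 of the first wave both peaked at low levels, at 310.4 to 334 at 23 h and 302 to 350 at 14 h (30.9 to 82.8 at the early times, 26.6 to 39.5 at 8 and 2 h). In the second wave ranks 16 and 25 stood at 1486 to 1841 at 14 h and 1627 to 1803 at 8 h, with 52.04 to 105 at the early times and 135 to 145 at 2 h; at 23 h their log2 values were 7.15 and 7.64. Ranks 42 and 47 of that wave stood at 1621 to 2240.1 at 14 h and 1827 to 2802 at 8 h, with 362 to 466 at 23 h and 292 to 355 at 2 h. The remaining members had no partner within that limit.

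A different uneven course was seen in ranks 6 and 9 of the second wave. Rank 9 read 32.0, 193, 967 and 76.6 before the wave, 18789 and 25077 in it and 1276 after it. Its early arrays spanned 4.92 on the log2 scale, the widest early range among the 54. Rank 6 had the same order of arrays on its low side apart from 35 and 23 h, with 43.0, 50.1, 233 and 53.3, then 6067, 9802 and 254. In both, the 32 h and 2 h arrays stood above the other low arrays.

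Beside the values, the files give the number of probes and the identifier of each member. All 98 were summarised from 6 probes, as were 99.3% of the kept probe sets. Identifiers with the K_ form made up 47.7% of the first wave (21 of 44) and 48.1% of the second (26 of 54). Their share of all kept probe sets was 35.5%. The 21 include ranks 17, 19, 28 and 29, which may not be separate genes, and the 26 include the close pair of ranks 42 and 47. The files do not say what distinguishes the 2 forms of identifier.

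The waves were set beside 3 other profiles, each sharing a high array with a wave, taken with the same rule and another set of high arrays. Likeness was not measured, and a profile high at 23 h alone was not included. At 14 h alone 115 probe sets were high (0.241%), at 8 h alone 180 (0.377%), and at 23, 14 and 8 h together 104 (0.218%). Their median gaps were 3.84, 2.66 and 2.75, next to 2.33 and 2.82 in the waves. The group at 23, 14 and 8 h and the first wave both had a median of 3.91 (log2) above the early mean at 23 h. At 14 h the medians were 4.82 above it for the group and 4.13 for the first wave. Median log2 levels of the group were higher, at 11.46 against 10.61 at 23 h and 12.39 against 11.1 at 14 h. At 8 h the group's median was 4.08 above the early mean and that of the first wave 0.74, as the rule requires. The K_ form made up 14.8% of the group at 14 h alone, 53.9% of that at 8 h alone and 49.04% of that at 23, 14 and 8 h. The values chose all of these groups, so none of the differences between them was tested.

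**Figure D4:**
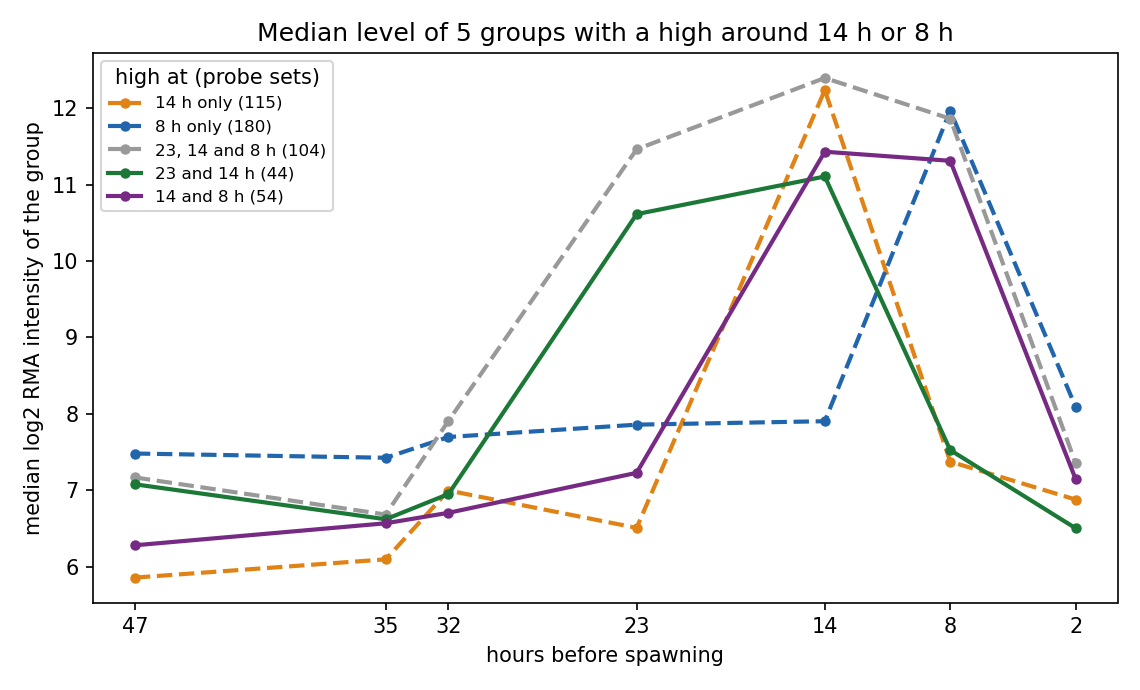
Median log2 RMA intensity (y axis) of 5 groups of probe sets against hours before spawning (x axis), 1 array per time. Solid lines are the waves at 23 and 14 h (44 probe sets) and at 14 and 8 h (54), and dashed lines the groups high at 14 h only (115), at 8 h only (180) and at 23, 14 and 8 h (104); at 8 h the first wave has a median of 7.53 and the second one of 11.31.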

How the data were processed

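Each of the 7 samples is 1 array of pooled medaka follicles. The authors deposited intensities on a linear scale, 1 per probe set and array, made with RMA according to the submitters' processing notes. RMA usually means background correction, quantile normalization and a robust summary over probes; which version and options were used is not stated in those notes as seen here, and the array medians still differ. Times were taken from the stage label of each per-array file. The series-wide table, equal to these files within 0.001 intensity units but with 5 of 7 arrays under another time, was an alternative. The description of the 2 h sample says 5 h, which does not change the order but would shorten the interval after 8 h.

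After a log2 transform, the filter kept probe sets whose mean over the 7 arrays exceeded the 25th percentile of these means (6.24). Gaps, counts, medians and ranges were computed with Python 3.11.15, pandas 2.3.3 and numpy 2.4.6. No p-value was computed. The rule was also run on simulated profiles with planted steps well above or well below the threshold. The simulated noise was small and the same at every level. This checks the code and says nothing about members near the threshold. Arrays have no read depth, and having 1 array per time limits the precision. Lists of genes and markers were not applied, since no identifier was named. By identifier, the 2 members with the widest gap per wave are given. The members, the waves and the comparisons were chosen with earlier results of these data known. The alternatives were other gaps, filters, an offset of 64, quantile normalization, median centring, any gap of 2, the table's times and leaving out arrays.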

Additional observations from a re-analysis of the deposited data

How the results depend on the processing

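The first wave (23 and 14 h) held 245 probe sets at a gap of 1 and 8 at a gap of 3, and 8 with a filter at the 50th percentile; the second (14 and 8 h) held 188, 25 and 12. With times as in the series table, the numbers were 0 and 4, sharing none with the members. Leaving out 1 array outside the wave gave 41 to 198 probe sets for the first wave and 54 to 231 for the second; the arrays that moved them most were 8 h and 23 h. The other settings (no filter, a filter on the highest value, an offset of 64, quantile normalization, median centring, any gap of at least 2) gave 33 to 55 and 48 to 65. Of the 44 and 54 members, 33 and 53 were kept after centring, and 32 and 42 with the offset. The median gap of the second wave was 2.45 with the offset against 2.82. The median difference between its high arrays was 0.30 with quantile normalization and 0.37 with centring against 0.18. Apart from that median gap with the offset, all median gaps and median differences between high arrays moved by less than 0.24. That is the median difference between 35 and 32 h. No paired analysis was possible because each group is 1 array. Weak low-side signals near the array's floor limit the folds.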
